A study of Homo sapiens with 6 samples.

Results

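The DNA mismatch repair genes MSH3, MSH6, MLH3, PMS1, PMS2 and EXO1 were followed in SW480 cells, an established line of colon adenocarcinoma cells. They were taken by symbol from a table of 20289 genes, each symbol matched 1 row, and all 6 passed the filter on low counts among 12920 genes tested. The line is known as microsatellite-stable, that is, without the loss of mismatch repair that lets short repeats change length. Libraries from an mRNA kit came from 3 control samples, labelled LV-NC with genotype WT, and from 3 labelled as overexpressing MUCP1 with a FLAG tag, MUCP1-FLAG. All cells grew in L-15 with serum and antibiotics. The labels call the libraries biological replicates but name neither a clone, a promoter nor a separate culture, so p-values cover the spread between these libraries, which may be in part technical. MUCP1 itself was not analysed here, and the overexpression is given as labelled.

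Mismatch repair removes the errors that DNA polymerases leave behind. Dimers of MutS homologues find the mismatch, dimers of MutL homologues are recruited to it and nick the new strand, the exonuclease EXO1 removes the stretch with the error, and the replication machinery (the clamp PCNA, its loader RFC, the single-strand binding protein RPA, DNA polymerase delta and a DNA ligase) fills and seals the gap. Loss of the pathway causes hereditary and sporadic colorectal cancers with unstable microsatellites. The 6 genes cover 2 MutS homologues, 3 MutL homologues and the nuclease, not every gene of the pathway.

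Library totals lay between 17333329 and 23282604 counts, and the members had 345 to 5498 counts per library, fewest for PMS1 and MLH3. Of 10 markers of colon epithelium 6 were expressed at testable levels, with summed levels of 6130 to 6822 CPM (counts scaled to a common library size with the TMM factors of edgeR) in LV-NC and 6677 to 6853 in MUCP1-FLAG. The sum is mostly KRT8 and KRT18 (means of 3615 and 2281 CPM in LV-NC) and does not show changes of weaker markers. CDX1, CDH17 and LGALS4 were at 0 in all libraries, and KRT20 had 0 to 3 counts per library. CDH1 fell from a mean of 31.2 CPM in LV-NC to 14.9 CPM in MUCP1-FLAG (edgeR adjusted p 3.3e-09). VIL1 also fell, KRT19 rose, and KRT8, KRT18 and CDX2 did not pass the test. Markers of fibroblasts, blood cells and endothelium summed to at most 1.30, 1.48 and 4.17 CPM in any library. The part of the shifted colon markers in the results below was not tested.

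The promoters of the members are shown first because genes with neighbouring starts and replication genes enter the comparison. RefSeq promoter windows of 300 bases on GRCh38.p14, 11 for the 6 members, were searched on both strands for 5 short motifs. TTTNNCGC, a form of the site of the E2F factors that drive S phase genes, was found in windows of 4 members, MSH3, MSH6, PMS2 and EXO1, and in 6.89% of all 35116 windows. CCAAT was found in those of MSH6, PMS1 and PMS2 (34.6% of all windows), and GGGCGG in those of every member except MLH3 (45.0%). Neither TTTGAA (15.2%) nor TATAAA (11.5%) was found in a member's window. These shares are per window, while members were counted per gene over all their windows, so they are not directly comparable. The stretches below carry these letters, with matches to TTTNNCGC or CCAAT in capitals; in MSH3 the capitals hold 2 overlapping matches, 1 on each strand. The PMS2 stretch is the whole interval between its start and that of AIMP2. A match describes letters and not a bound site.
EXO1, chr1:241848193-241848222, + strand: attgaaaggtcagccTTTCGCGCgctgtgt
MSH3, chr5:80654536-80654565, + strand: gcggtcaagTTTGGCGCGAAAttgtggccg
MSH6, chr2:47783137-47783166, + strand: ctccccccagaTTTCCCGCcagcaggagcc
PMS1, chr2:189784394-189784423, + strand: gcggATTGGctgcgagcagcgCCAATctca
PMS2, chr7:6009126-6009244, − strand: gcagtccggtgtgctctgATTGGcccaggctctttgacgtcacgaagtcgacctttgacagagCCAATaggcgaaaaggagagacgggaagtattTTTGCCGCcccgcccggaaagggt

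MSH6 was by far the most abundant member per length, and MLH3 the least. Levels between genes were compared in the deposited FPKM, which scale counts by gene length and library size. MSH6 had 65.9 ± 8.95 FPKM in LV-NC and 59.9 ± 1.88 FPKM in MUCP1-FLAG (SD, n = 3 per group), above 89.5% of the tested genes. EXO1 followed with 17.8 ± 2.37 and 22.3 ± 1.38 FPKM, then PMS2 with 15.3 ± 0.935 and 15.4 ± 0.146 FPKM. In LV-NC the libraries of EXO1 and PMS2 overlapped, at 15.83 to 20.44 against 14.44 to 16.3 FPKM, and in MUCP1-FLAG every EXO1 value, from 20.76 FPKM, lay above every PMS2 value. MSH3 (8.60 ± 0.707 and 8.47 ± 1.01 FPKM) and PMS1 (8.87 ± 0.394 and 7.19 ± 0.415 FPKM) could not be ordered beyond their spread. MLH3 had 5.73 ± 0.606 and 5.10 ± 0.139 FPKM and lay below all other members in every library.

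**Figure D1:**
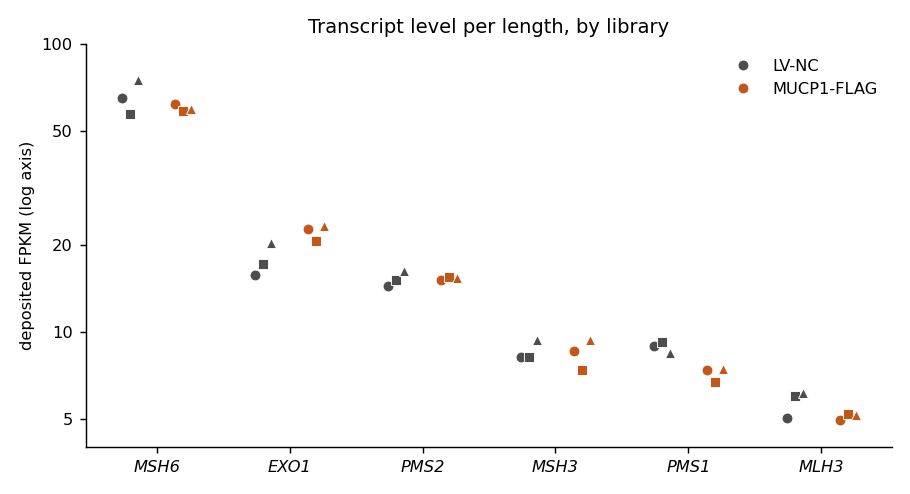
Deposited FPKM of the 6 members on a log axis, 1 point per library (circle, square and triangle for replicates 1, 2 and 3; grey LV-NC, orange MUCP1-FLAG), ordered by mean. MSH6 lies at 57.31 FPKM or more in every library, and MLH3 at 6.13 FPKM or less.

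A single member was called as different between the groups. EXO1 was higher in MUCP1-FLAG, none was lower, and 5 did not pass the test (edgeR quasi-likelihood test, Benjamini-Hochberg adjusted p under 0.05 over all tested genes). Of all 12920 genes in the fit, 8.35% were called higher and 7.71% lower, 16.1% in either direction, so 1 call among 6 genes lies near the background. The median log2 fold change of the members was −0.05, beside −0.004 over all tested genes. The CPM of the groups did not overlap for 3 members, EXO1, MSH3 and PMS1, and for 33.1% of all tested genes. In bulk RNA, fewer cells with a transcript and less of it per cell cannot be told apart.

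**Figure D2:**
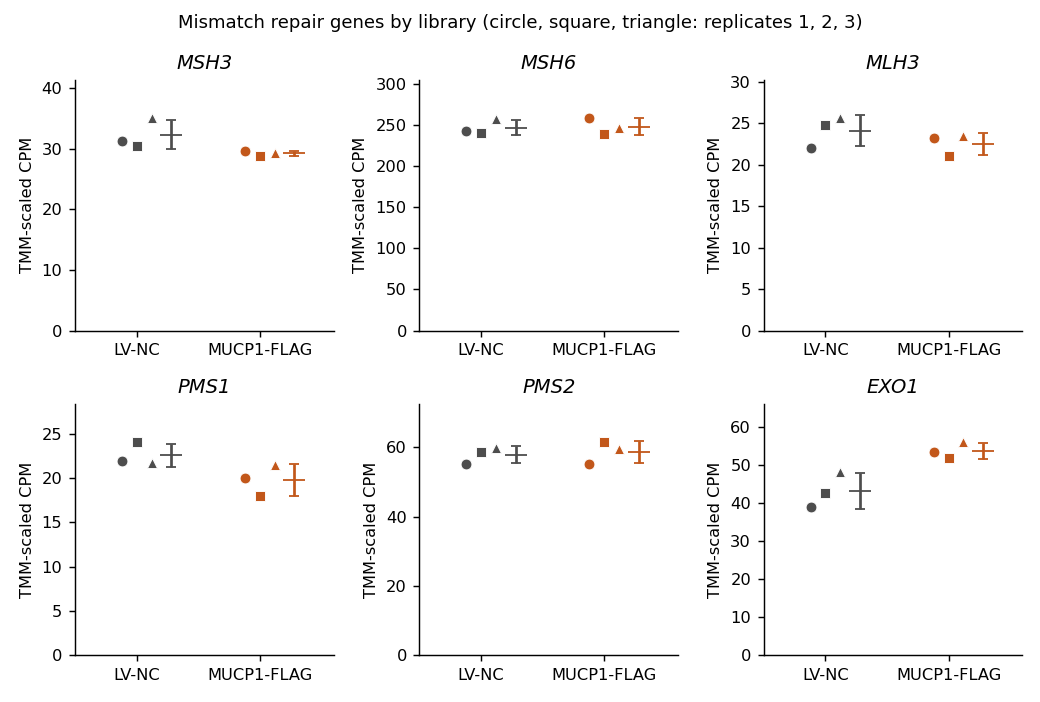
TMM-scaled CPM of each member (vertical axes from 0), 1 point per library, with the mean and SD of 3 libraries beside the points. EXO1 stands higher in all MUCP1-FLAG libraries, while MSH6, MLH3 and PMS2 overlap between the groups.

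The MutS homologues MSH6 and MSH3 recognise different errors: MSH6 serves the dimer that reads single mismatches and small loops, MSH3 the dimer that reads larger loops. MSH6 had 243.3, 239.9 and 257.4 CPM in LV-NC replicates 1 to 3, against 258.7, 239.3 and 247.0 CPM in MUCP1-FLAG. The groups overlapped throughout, and the log2 fold change was 0.01 ± 0.05 (SE, edgeR adjusted p 0.931), with a 95% interval from −0.09 to 0.11. In linear terms that interval spans 0.939-fold to 1.08-fold.

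MSH3 (chromosome 5, 80654648 to 80876460 in GENCODE 29, GRCh38) had 31.3, 30.5 and 35.1 CPM in LV-NC, against 29.7, 28.8 and 29.3 CPM in MUCP1-FLAG. Each MUCP1-FLAG value lay below each LV-NC value, but by a small margin, since the highest of the former was 29.7 CPM and the lowest of the latter 30.5 CPM. The log2 fold change of −0.14 ± 0.07 did not pass the test (edgeR adjusted p 0.205, 95% interval −0.30 to 0.01). In FPKM the groups of MSH3 overlapped, at 8.19 to 9.42 and 7.39 to 9.39. The gene length implied by count and FPKM ran from 3.12 to 3.85 kb between libraries for MSH3 and from 3.47 to 4.19 kb for MSH6, with coefficients of variation of 8.06% and 7.36% beside a median of 1.97% over 8909 well-counted genes, so counts and FPKM carry different changes for these genes. MLH3 (5.88%), PMS1 (5.20%), PMS2 (3.02%) and EXO1 (2.41%) also varied by more than that median. MSH3, MSH6, MLH3 and PMS1 had a coefficient above 5%, and PMS2 and EXO1 did not. Such variation was not particular to the members, since 1894 of the 8909 genes lay above 5%.

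The level of MSH3 relative to MSH6 was therefore not settled in direction. Its FPKM ratio was 0.126, 0.143 and 0.125 in LV-NC, against 0.139, 0.127 and 0.158 in MUCP1-FLAG. The log2 difference was 0.10 (exact two-sided permutation test, p 0.5, adjusted 0.571 over 8 ratios), and it was −0.15 with CPM in place of FPKM (exact p 0.1, adjusted 0.2). With 3 libraries against 3 the smallest p this test allows is 0.1.

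Among the MutL homologues, PMS2 carries the endonuclease activity of the main repair dimer. Its level was 55.1, 58.6 and 59.8 CPM in LV-NC, against 55.1, 61.5 and 59.5 CPM in MUCP1-FLAG, with overlapping groups and 0.02 ± 0.06 as the log2 fold change (edgeR adjusted p 0.846, 95% interval −0.11 to 0.15). GENCODE 29 names 11 pseudogene copies of PMS2, all on chromosome 7, so reads may be shared with them and the level is uncertain. MLH3, which acts in meiotic crossing over and on repeat tracts, had 22.0, 24.8 and 25.7 CPM in LV-NC, against 23.2, 21.0 and 23.4 CPM in MUCP1-FLAG (log2 fold change −0.10 ± 0.08, edgeR adjusted p 0.453, 95% interval −0.27 to 0.07). Its groups overlapped too.

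PMS1, a MutL homologue whose part in repair is less clear, ranged from 21.7 to 24.1 CPM in LV-NC, against 17.9 to 21.5 CPM in MUCP1-FLAG. The groups did not overlap, by a margin of 21.7 against 21.5 CPM between the third libraries of each. The log2 fold change was −0.19 ± 0.09, with an unadjusted p of 0.037 and an edgeR adjusted p of 0.14. In FPKM the groups lay further apart, at 8.94, 9.23 and 8.45 in LV-NC against 7.38, 6.71 and 7.47 in MUCP1-FLAG, and limma on log2(FPKM + 1) gave −0.27 with an adjusted p of 0.0625. PMS1 passed the test in no fit, with adjusted p from 0.058 to 0.49 over 14 alternatives.

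The FPKM of PMS1 relative to PMS2 was 0.619, 0.607 and 0.518 in LV-NC, against 0.485, 0.433 and 0.484 in MUCP1-FLAG. All MUCP1-FLAG ratios were lower, by 0.31 on the log2 scale (exact two-sided permutation test, p 0.1, adjusted 0.16). With CPM the difference was −0.21 (exact p 0.1, adjusted 0.2), and the groups were parted only by 0.3634 in LV-NC replicate 3 against 0.3628 in MUCP1-FLAG replicate 1. MLH3 relative to PMS2 was 0.348 to 0.396 in LV-NC, against 0.324 to 0.335 in MUCP1-FLAG (log2 difference −0.17, exact p 0.1, adjusted 0.16). With CPM the MLH3 ratios of the groups overlapped.

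EXO1 had 38.9, 42.6 and 48.2 CPM in LV-NC, against 53.4, 51.9 and 56.0 CPM in MUCP1-FLAG. All MUCP1-FLAG libraries were above all LV-NC libraries, among which replicate 3 was the highest. Its mean rose from 43.2 ± 4.71 to 53.8 ± 2.06 CPM (SD, n = 3 per group), a log2 fold change of 0.31 ± 0.07 with an edgeR adjusted p of 0.00448. This is a rise of 24.4%, with a 95% interval from 12.1% to 38.0%. In the authors' deposited table EXO1 has a log2 fold change of 0.32 with an adjusted p of 0.0044. The deposited fold change is the log2 ratio of the group mean FPKM, a different scale from the counts tested here. The processing notes list DESeq2 but give no tool a role. The smallest adjusted p of the other members in the authors' deposited table is 0.38, for PMS1. On the log2(FPKM + 1) scale limma gave EXO1 0.31, and on the log2(FPKM + 0.1) scale 0.33, neither past the test (adjusted p 0.0663 and 0.0644), in fits that called 4.0% and 3.95% of genes higher. Leaving out single libraries gave edgeR adjusted p from 4.41e-05, without LV-NC replicate 3, to 0.0478, without MUCP1-FLAG replicate 3.

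A call for EXO1 and none for MSH6 does not by itself show that the genes differ, so their ratio was taken within each library. EXO1 relative to MSH6 was 0.243, 0.300 and 0.272 in LV-NC, against 0.366, 0.356 and 0.394 in MUCP1-FLAG in FPKM. The groups did not overlap, and the log2 difference was 0.46 (exact two-sided permutation test, p 0.1, adjusted 0.16); with CPM it was 0.31. This pair was chosen after its values were seen.

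Genes of excision and resynthesis, the later steps that repair shares with DNA replication, rose in part. Of 14 such genes 7 rose and none fell (8.35% and 7.71% over all tested genes), all 14 log2 fold changes were above 0, and their median was 0.17. PCNA, the sliding clamp that ties repair to the replication fork, had 271, 255 and 266 CPM in LV-NC, against 349, 339 and 329 CPM in MUCP1-FLAG, with a log2 fold change of 0.36 ± 0.05 (SE, edgeR adjusted p 8.51e-06) and no overlap. LIG1, the ligase that seals the repaired strand, had a mean of 46.4 ± 2.08 CPM in LV-NC that rose to 59.3 ± 1.36 CPM (SD), or by 0.35 ± 0.06 in log2 (SE, edgeR adjusted p 0.000295). RPA1 and RPA3, subunits of the single-strand binding protein, rose by 0.18 ± 0.05 and 0.26 ± 0.07, and POLD2, an accessory subunit of DNA polymerase delta, by 0.16 ± 0.05 (edgeR adjusted p 0.0157, 0.016 and 0.0317). The number of risers was 2 with limma on FPKM, 4 with upper quartile scaling, 3 when LV-NC replicate 2 or MUCP1-FLAG replicate 2 was left out, and 2 when MUCP1-FLAG replicate 3 was. PCNA and LIG1 passed in all 14 alternatives, RPA1 and RPA3 in 10 each and POLD2 in 7. With limma on log2(FPKM + 1) POLD2 had 0.09 (adjusted p 0.417).

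**Figure D3:**
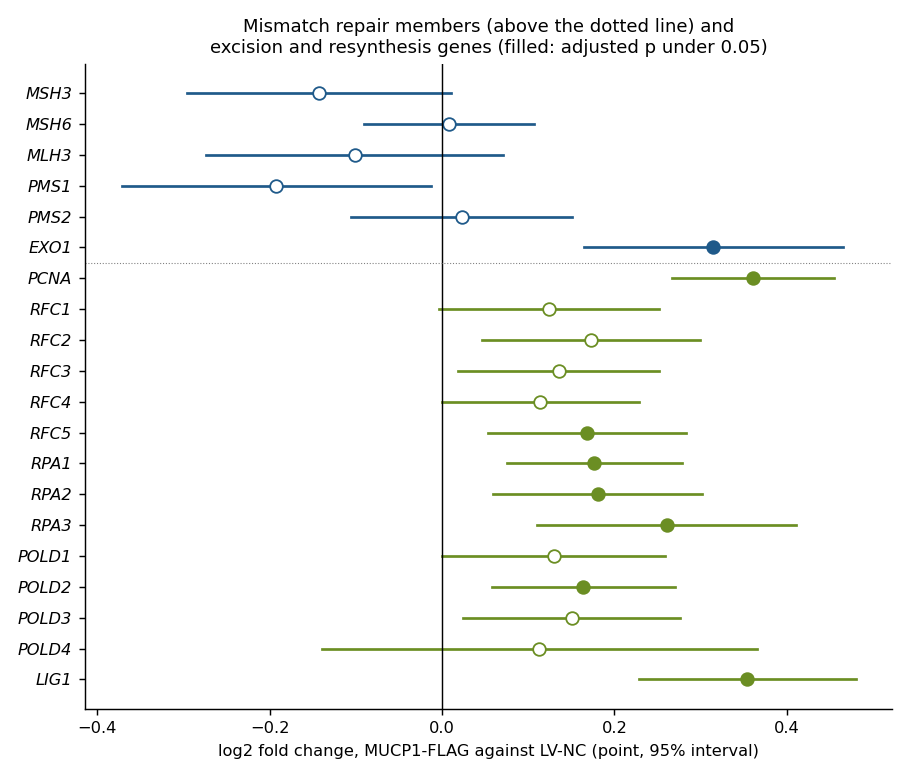
Log2 fold change with its 95% interval (edgeR) for the 6 members, above the dotted line, and 14 excision and resynthesis genes; filled points have an adjusted p under 0.05. EXO1 lies at 0.31, beside PCNA at 0.36 and LIG1 at 0.35, while the MutS and MutL homologues lie between −0.19 and 0.02.

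EXO1 and PCNA were also set against each other within each library. The FPKM of EXO1 was 0.0743, 0.0860 and 0.0970 of that of PCNA in LV-NC, against 0.0836, 0.0793 and 0.0910 in MUCP1-FLAG, with overlapping groups. The log2 difference of −0.01 changed sign when single libraries were left out (−0.11 to 0.08; exact two-sided permutation test on all libraries, p 1.0).

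Of 11 subunit genes of the replicative helicase, which unwinds DNA ahead of the fork, 7 rose and none fell, with a median of 0.19, where 8.35% of all tested genes were higher and 7.71% lower. Among them CDC45 rose by 0.47 ± 0.06, GINS2 by 0.44 ± 0.07, MCM6 by 0.27 ± 0.04, MCM3 by 0.26 ± 0.04 and MCM4 by 0.19 ± 0.04 (edgeR adjusted p from 2.26e-05 for CDC45 to 0.00462 for MCM4). With limma on FPKM 4 of the 11 were called, and MCM4 was not. Of 14 tested accessory factors 3 rose (21.4%, beside 8.35% of all tested genes) and 11 were not called. The risers were the flap nuclease FEN1, by 0.29 ± 0.05, the chromatin protein HMGB1, by 0.20 ± 0.04 and POLE, the catalytic subunit of DNA polymerase epsilon, by 0.24 ± 0.06 (edgeR adjusted p 0.000542, 0.00275 and 0.0051). POLE had an adjusted p of up to 0.0802 with limma on FPKM. MSH5, a MutS homologue of meiosis, had 4.99 ± 0.588 CPM in LV-NC, against 4.35 ± 0.633 CPM in MUCP1-FLAG (edgeR adjusted p 0.459), and MSH4, its meiotic partner, had 1 count in MUCP1-FLAG replicate 2 and 0 in every other library.

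**Figure D4:**
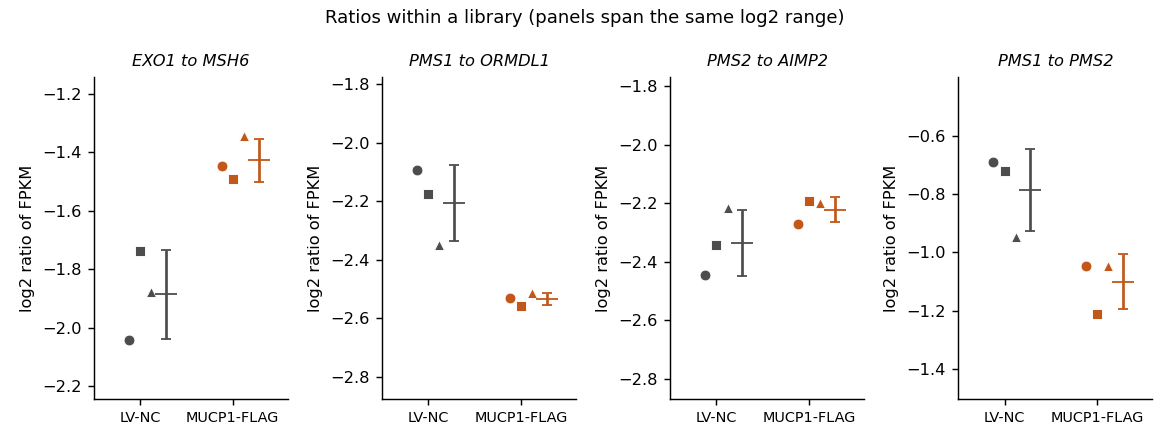
Log2 ratio of deposited FPKM within each library for 4 pairs of genes (circle, square and triangle for replicates 1, 2 and 3; mean and SD beside the points; all panels span the same range). PMS1 to ORMDL1 and PMS1 to PMS2 are lower and EXO1 to MSH6 is higher in every MUCP1-FLAG library, and PMS2 to AIMP2 overlaps.

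PMS1 and PMS2 were also compared with the genes that start next to them on the opposite strand, in pairs added after the values were seen. PMS1 (chromosome 2, 189784085 to 189877629) starts 286 bases from ORMDL1, a regulator of sphingolipid synthesis, whose log2 fold change was 0.06 ± 0.06 (edgeR adjusted p 0.53). The genes overlap by 287 bases, and exons of ORMDL1 cover 1.89% of the exonic bases of PMS1. PMS1 relative to ORMDL1 was 0.235, 0.222 and 0.196 in LV-NC, against 0.173, 0.170 and 0.175 in MUCP1-FLAG in FPKM (log2 difference −0.33, exact permutation p 0.1, adjusted 0.16), but the groups overlapped in CPM. PMS2 (chromosome 7, 5973239 to 6009125) starts 120 bases from AIMP2, a scaffold of tRNA synthetases, which had −0.09 ± 0.05 (edgeR adjusted p 0.293). The ratio of PMS2 to AIMP2 overlapped between the groups in both units.

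MSH6, MLH3 and EXO1 have other neighbours. MSH6 (chromosome 2, 47695530 to 47810101) overlaps the far end of FBXO11, a ubiquitin ligase subunit, on the opposite strand, and exons of FBXO11 cover 16.2% of its exonic bases; FBXO11 had −0.08 ± 0.06 (edgeR adjusted p 0.422). MLH3 (chromosome 14, 75013764 to 75051532) and ACYP1, an acylphosphatase, lie on the same strand, and ACYP1 had 0.15 ± 0.16 (edgeR adjusted p 0.585). EXO1 (chromosome 1, 241847967 to 241895148) shares no exonic base with another gene, and its neighbour WDR64 was at 0 in all libraries.

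The genes closest to each member in pattern were sought among 11635 others with a mean of at least 2 CPM, by Pearson's r of log2 CPM over the 6 libraries. With so many candidates and 6 points, high values arise for any gene, and they are given as a description. EXO1 was closest to PSMC3IP (0.993), a factor of meiotic recombination, and ESCO2 (0.992), a cohesin acetyltransferase of S phase. For MSH3 they were SYNE2 (0.997) and NOM1 (0.994), for MSH6 BTD (0.988) and MED12L (0.973), and for MLH3 RASEF (0.997) and YOD1 (0.996). PMS1 was closest to POMT2 (0.982) and NOL4L (0.977), and PMS2 to ASB3 (0.984) and XXYLT1 (0.979). ESCO2 rose by 0.35 (edgeR adjusted p 0.00554); none of the other 11 passed the test.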

How the data were processed

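The authors deposited whole-number read counts and FPKM per gene and library, together with their own group means, log2 fold change, p-value and adjusted p-value. Per the submitters' processing notes, fastp, HISAT2, featureCounts, DESeq2 and the build GRCh38 are listed with no role; versions, counting options and strand are not given in the sources used here. Deposited FPKM and counts did not imply a constant gene length (above). Counts were tested in R 4.3.3 with edgeR 4.0.16 (TMM, filterByExpr with a minimum count of 10, robust quasi-likelihood F test, Benjamini-Hochberg over 12920 genes, threshold 0.05), after a check on simulated data. Each SE was derived from a gene's F statistic. Alternatives used DESeq2 1.42.0, limma 3.58.1 with pseudocounts of 1 and 0.1, other scalings and filters, a replicate block and each library left out. Within groups, libraries differed by more than sampling noise (chi-square over degrees of freedom 2.57 to 8.28).

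The members and lists were chosen with earlier results of these data known. Named genes are all members, up to 5 called genes of each list, the adjacent genes, and 2 genes per member closest in pattern. Ratios were tested by exact permutation and adjusted over all 8 computed, and some results are not reported here. Protein sequences were planned and not used here.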

Additional observations from a re-analysis of the deposited data

How the results depend on the processing

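Over 14 alternatives the direction of EXO1, MSH3, MLH3 and PMS1 held, and EXO1 passed the test in 12. With limma on log2(FPKM + 1) and log2(FPKM + 0.1) EXO1 had 0.31 and 0.33 without passing, so 0 members were called in either fit, 2 excision and resynthesis genes were called in each, and 517 and 510 genes were higher and 553 and 543 lower. Upper quartile scaling left 4 excision and resynthesis genes. The small value of MSH6 turned to −0.0070 with upper quartile scaling and to −0.13 with limma at both pseudocounts, and ran from −0.026 to 0.040 with single libraries left out; PMS2 ran from −0.012 to 0.061. Leaving out 1 library gave 0.24 to 0.40 for EXO1, 2 to 9 called excision and resynthesis genes, and 639 to 1323 higher and 624 to 1213 lower genes; the lowest numbers came without MUCP1-FLAG replicate 3, and 671 genes were higher without LV-NC replicate 2. The log2 difference of MSH3 to MSH6 was −0.15 with CPM, and that of EXO1 to PCNA ran from −0.11 to 0.080. The causes were not tested.

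With the replicate number as a block, edgeR called 1005 genes higher and 954 lower, EXO1 had 0.32 (adjusted p 0.00299), and no call of a member changed. Same-numbered libraries deviated together only weakly (r of 0.0351, 0.0498 and 0.00239). LV-NC replicates 1 and 2 correlated best with their own number, and replicate 3 with number 2 (0.00451 against 0.00239). The labels do not say whether same-numbered libraries were prepared together, and these values cannot decide it. Counts of 345 or more per library leave changes of about the size of the intervals given above undetectable for the MutS and MutL homologues.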

Other observations

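Other repair pathways held risers too. Of 19 genes of homologous recombination and the Fanconi pathway 5 rose and none fell, and their median was 0.16 in log2, where 8.35% of all tested genes were higher. The recombination motors RAD54B and RAD54L rose by 0.56 ± 0.12 and 0.40 ± 0.09 in log2 (SE, edgeR adjusted p 0.00189 and 0.00473). RAD54B passed in all 14 alternatives, while RAD54L did not pass with limma on FPKM (adjusted p 0.159 and 0.151 at pseudocounts of 1 and 0.1). FANCA and FANCI, of the Fanconi pathway of crosslink repair, rose by 0.28 ± 0.07 and 0.20 ± 0.05; FANCI did not pass without LV-NC replicate 2 or without MUCP1-FLAG replicate 1. The number of risers was 3 with limma on FPKM and 8 without LV-NC replicate 3.

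Base excision repair, which removes single damaged bases, had 3 risers among 15 genes (where 8.35% of all tested genes were higher), a median of −0.02 and 6 log2 fold changes above 0. NEIL3, a glycosylase of cycling cells, had 11.7 ± 0.326 CPM in LV-NC and rose to 16.0 ± 1.47 CPM (SD), a log2 change of 0.46 ± 0.10 (SE, edgeR adjusted p 0.00211). In the same list PARP1, the sensor of strand breaks, rose by 0.17 ± 0.04 and UNG, the uracil glycosylase, by 0.19 ± 0.06. With limma on FPKM, and without LV-NC replicate 2, 1 of the 15 was called higher; 1 was called lower with upper quartile scaling, at 1 CPM in all libraries, and when replicate 1 of either group was left out. UNG did not pass in 6 of 14 alternatives, and PARP1 in 3.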
